A study of Mus musculus with 4 samples.

Results

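Tropomyosins, tropomodulins and leiomodins are proteins of the actin thin filament, and 10 of their genes were followed here: the tropomyosin genes Tpm1, Tpm2, Tpm3 and Tpm4, the tropomodulin genes Tmod1, Tmod2, Tmod3 and Tmod4, and the leiomodin genes Lmod2 and Lmod3. They were taken by symbol from the 21755 protein-coding genes of the autosomes and the X chromosome, and all 10 symbols were found in the mm10 annotation. Their 73 transcripts begin at 70 transcription start sites (TSSs), which fall into 25 promoters of the 48338 annotated for protein-coding genes when TSSs of a gene within 1000 bp of each other are joined. Promoters are numbered in the direction of transcription, so that Tpm3 P1 is the most upstream promoter of Tpm3.

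The mark was trimethylation of lysine 4 of histone H3 (H3K4me3), mapped by chromatin immunoprecipitation and sequencing in a calf muscle, the gastrocnemius, of female adults of the hybrid strain B6CASTF1/J at an age of 2 months. The 4 libraries came from pool E (biological replicate 1) and pool F (biological replicate 2), each a pool of 2 biosamples with 2 technical libraries, of fragments of 200 to 600 bp. Both pools were of 1 sex, age and strain, with no treated or mutant group, so the data hold no contrast between conditions. Peaks were deposited for pool E (42418), for pool F (39544), for both pools together (45270, the pooled list) and as a replicated list (41955), and no value exists per library, so no test between groups was made and the spread between the pools is the only measure of error. In bulk tissue, fewer cells of a type and less of the mark per cell cannot be told apart.

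Tropomyosin is a coiled coil that lies along the actin filament and, in striated muscle, moves with troponin to open or close the myosin-binding sites. Tpm1 and Tpm3 use alternative promoters: the upstream promoter gives the long forms, which include those of the sarcomere, and an internal promoter gives short forms of the cytoskeleton. Tropomodulins cap the pointed end of the filament, and the related leiomodins nucleate actin and lengthen thin filaments. H3K4me3 is found around the starts of genes that are active or poised, and at CpG-rich promoters in particular.

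Promoter sequences on which the results below turn are printed first, 5′ to 3′ on the strand of the gene, from 250 bases before to 50 bases after the RefSeq start (RefSeq, on GRCm38.p6, which is mm10). They are the reference sequence of C57BL/6J, and the CAST/EiJ allele of these hybrid mice was not used here. Capitals mark CpG dinucleotides in the following 4 windows, which show the upstream and internal promoters of Tpm3, the promoter of Tpm4 with the highest signal value of the 10 genes in the replicated list, and that of Tmod4 with the lowest.
Tpm3 upstream promoter, chr3:90072401-90072700, plus strand: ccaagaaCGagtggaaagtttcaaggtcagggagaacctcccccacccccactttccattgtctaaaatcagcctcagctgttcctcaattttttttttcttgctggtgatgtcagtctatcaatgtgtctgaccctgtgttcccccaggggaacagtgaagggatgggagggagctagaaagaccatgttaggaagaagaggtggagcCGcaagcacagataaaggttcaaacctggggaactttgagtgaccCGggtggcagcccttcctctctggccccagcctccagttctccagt
Tpm3 internal promoter, chr3:90079271-90079570, plus strand: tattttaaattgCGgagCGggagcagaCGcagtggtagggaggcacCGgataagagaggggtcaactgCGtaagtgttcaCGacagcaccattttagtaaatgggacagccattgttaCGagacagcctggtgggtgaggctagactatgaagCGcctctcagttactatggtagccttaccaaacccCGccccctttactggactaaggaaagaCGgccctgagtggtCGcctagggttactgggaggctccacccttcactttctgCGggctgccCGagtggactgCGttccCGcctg
Tpm4, chr8:72135038-72135337, plus strand: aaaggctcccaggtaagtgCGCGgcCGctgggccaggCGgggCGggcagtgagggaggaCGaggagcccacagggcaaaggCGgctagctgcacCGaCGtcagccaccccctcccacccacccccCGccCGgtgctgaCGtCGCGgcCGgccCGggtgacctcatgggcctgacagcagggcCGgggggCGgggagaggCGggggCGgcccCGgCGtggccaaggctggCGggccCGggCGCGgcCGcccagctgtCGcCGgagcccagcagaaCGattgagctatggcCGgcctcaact
Tmod4, chr3:95124264-95124563, plus strand: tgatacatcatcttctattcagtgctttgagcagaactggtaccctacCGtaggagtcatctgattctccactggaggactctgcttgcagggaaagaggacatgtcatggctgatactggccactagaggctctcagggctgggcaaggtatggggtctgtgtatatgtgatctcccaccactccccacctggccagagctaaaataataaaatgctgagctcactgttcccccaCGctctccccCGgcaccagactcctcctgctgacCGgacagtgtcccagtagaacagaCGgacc
The number of CpGs was 3 in the upstream window of Tpm3, 15 in its internal window, 31 in the window of Tpm4 and 5 in that of Tmod4. In the other RefSeq windows of these genes it was 27 at Tpm1, 25 at Tmod1, 20 at Tpm2, 8 at Lmod2, and 9 and 2 at Tmod2. A relation between this number and signal value was not tested. Over all 32851 RefSeq windows of this length the median was 7 CpGs (interquartile range 3 to 20).

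All 10 genes carried a peak within 1000 bp of a TSS in the pool E, pool F, pooled and replicated lists. This share is to be read against a high background, since 69.3% of protein-coding genes had such a peak in the replicated list, 69.3% in that of pool E, 68.9% in that of pool F, 69.5% in the pooled list and 68.6% in both pools. By promoter, 16 of the 25 were marked in the replicated list (41.2% of all promoters of protein-coding genes) and 16 in both pools (40.1% of all promoters). The count was 17 in pool E, 16 in pool F and 17 in the pooled list. Of the 15 promoters with a protein-coding transcript 12 were marked, against 54.5% of all such promoters, and of the 10 without one 4 were marked, against 14.8%. The tropomyosin genes had 9 of their 10 promoters marked, the tropomodulin genes 5 of 13 and the leiomodin genes 2 of 2.

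Several of the marked promoters shared a peak or had none over the start itself. Among the 7 genes with 2 or more promoters, 4 had 2 or more marked (Tpm1, Tpm2, Tpm3 and Tmod4), against 29.1% of all genes with 2 or more promoters. In 3 of the 7 (Tpm1, Tpm2 and Tmod4) 1 peak reached 2 promoters, against 15.2% of all genes with 2 or more promoters. A peak covered a TSS at 13 of the 16 marked promoters, and at the other 3 it lay at most 314 bp away. At those 3, Tpm1 P3, Tpm3 P1 and Tpm3 P3, the mark was weak, so a marked promoter in these counts is not in every case a promoter with a peak of its own.

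**Figure D1:**
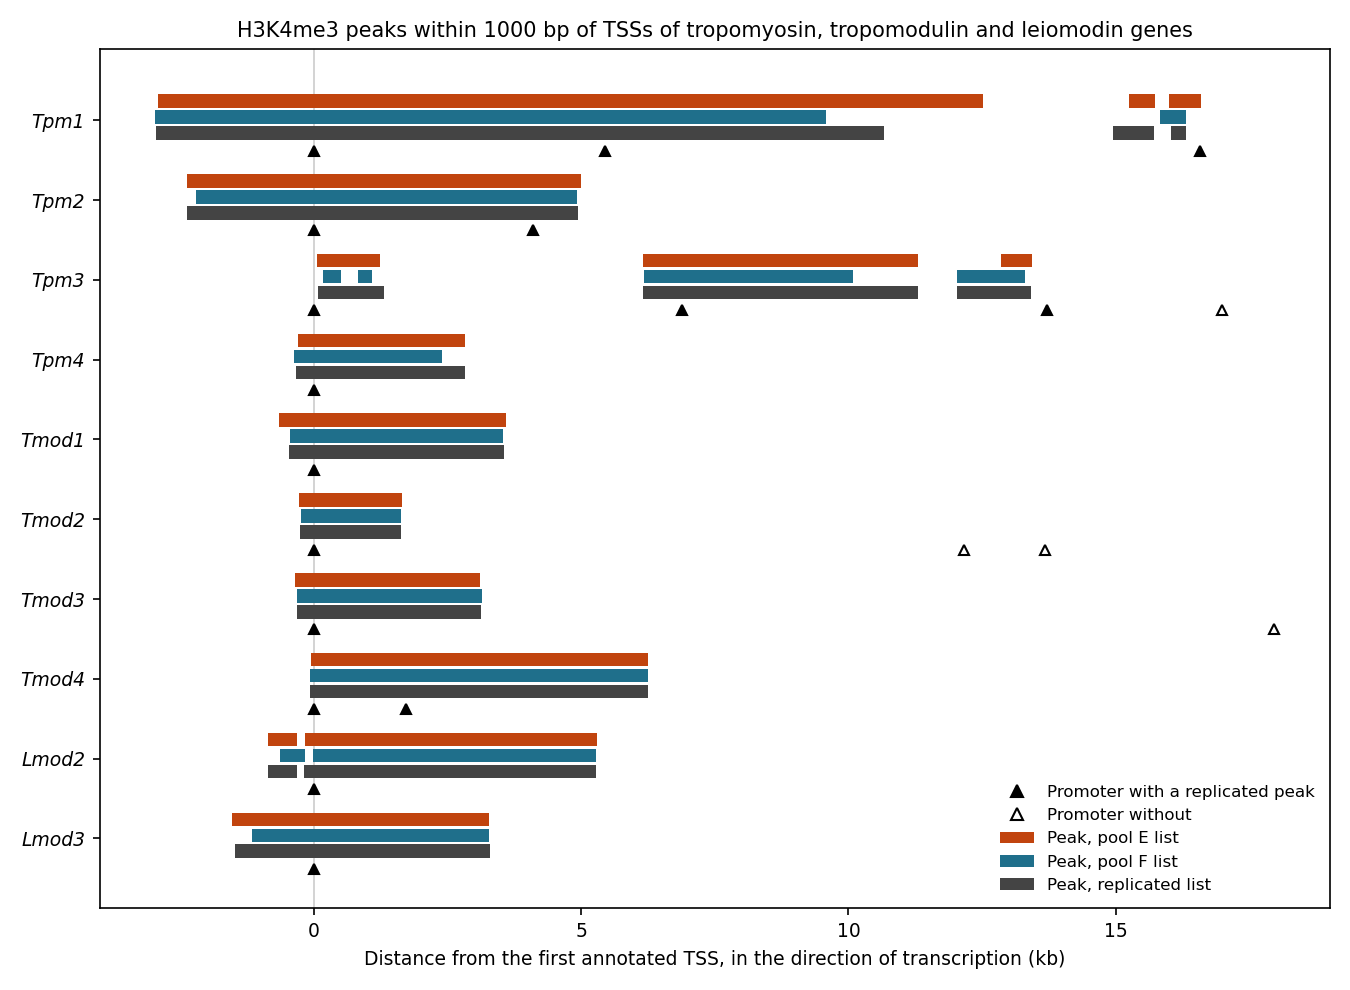
Peaks of pool E, pool F and the replicated list (bars, top to bottom) within 1000 bp of TSSs of the 10 genes, by distance in kb from the first annotated TSS in the direction of transcription; filled triangles are promoters with a replicated peak and open triangles promoters without, and promoters farther than the axis are not drawn. A single bar spans the first 2 promoters of Tpm1, both of Tpm2 and both of Tmod4, while the first 2 promoters of Tpm3 have separate bars.

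Tpm1 encodes the alpha-tropomyosin of fast muscle and heart and also short cytoskeletal forms, and it carried the widest domain of the 10 genes. Its gene lies on the minus strand of chromosome 9 from 67022590 to 67049406. A single peak covered P1, whose complete coding transcripts have 281 to 326 codons, and P2, an internal promoter whose complete coding transcripts have 245 to 251 codons. It was 15430 bp wide with a signal value of 56.5 in pool E, 12546 bp wide with 50.4 in pool F, and 13622 bp wide with 53.0 in the replicated list, from 67038735 to 67052356. The signal value is the authors' own figure for a peak, and its reference is not stated. It is used here to describe and rank peaks within a list and to set the pools side by side. In ratios between the pools, a difference in scale between the lists cannot be told from one in the mark. Both pools thus held the domain whole, and they differed by 2884 bp in its width. Among marked protein-coding genes its width stood at percentile 99.9 and its signal value at percentile 69.2 of the replicated list, and its summit lay 426 bp downstream of the first TSS. The mark at P3, the start of a non-coding transcript, was weak: the nearest peak had 3.74 in pool E, 3.63 in pool F and 3.16 in the replicated list. A second peak, 840 bp from the TSS with 4.96 in pool E and 872 bp from it with 3.85 in the replicated list, had no counterpart within 1000 bp in pool F.

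Tpm2 encodes beta-tropomyosin of striated and smooth muscle, and it too had 1 wide peak over both of its promoters. The peak was 7371 bp wide with a signal value of 51.5 in pool E, 7125 bp wide with 37.2 in pool F, and 7311 bp wide with 45.4 in the replicated list, on chromosome 4 from 43518823 to 43526133. P1 holds all complete coding transcripts, of 284 codons, while P2, within the gene, starts a non-coding one. Signal value differed more between the pools here than at any other of the 10 genes (pool E over pool F, 1.38).

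Tpm3 encodes, from its upstream promoter, the alpha-tropomyosin of slow fibres and, from its internal promoter, short forms found in most cells, and these promoters carried unlike amounts of the mark. Both lie on the plus strand of chromosome 3, with P2 6891 bp downstream of P1. P2, whose complete coding transcripts have 247 to 248 codons, had a peak of 5139 bp with a signal value of 54.8 in pool E, of 3904 bp with 47.4 in pool F, and of 5140 bp with 50.6 in the replicated list, from 90078812 to 90083951. P1, whose complete coding transcripts have 284 to 285 codons, had a peak of 1177 bp with 3.86 in pool E, 2 peaks of 351 bp and 261 bp with 3.63 and 2.998 in pool F, and 1 of 1225 bp with 3.36 in the replicated list, from 90072734 to 90073958. In both pools P1 was far weaker than P2, and its replicated peak began 83 bp past the nearest TSS and stood at percentile 15.5 of the signal values of all replicated peaks. Read by gene, Tpm3 took its place among marked genes from P2, at percentile 61.9 of signal value and 93.0 of width. P3, where no annotated protein-coding transcript begins, had peaks of 584 bp with 4.50 in pool E, 1271 bp with 5.68 in pool F and 1388 bp with 5.45 in the replicated list. P4 had none, and the nearest replicated peak lay 3574 bp away.

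Tpm4, which in mouse encodes a short cytoskeletal tropomyosin from 1 annotated promoter with a coding length of 248 codons, had the highest signal value of the 10 genes in the replicated list. Its peak was 3132 bp wide with 63.9 in pool E, 2759 bp wide with 56.0 in pool F, and 3161 bp wide with 59.4 in the replicated list, on chromosome 8 from 72134649 to 72137809. Its signal value stood at percentile 89.5 and its width at percentile 74.1 among marked genes. In pool E the signal value of Tmod3 was higher, 65.8, and in pool F that of Tpm4 was the highest of the 10 genes. A relation of width to the length of the product was not tested, since the tropomyosin promoters are few. Replicated peaks at the starts of short forms, Tpm3 P2 and Tpm4, were 5140 and 3161 bp wide. Among the starts of long forms, Tpm2 P1 had 7311 bp and Tpm3 P1 1225 bp. The peak at Tpm3 P1 was weak, with a signal value of 3.36, and covered no TSS of that promoter. The 13622 bp of Tpm1 cover starts of both kinds.

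**Figure D2:**
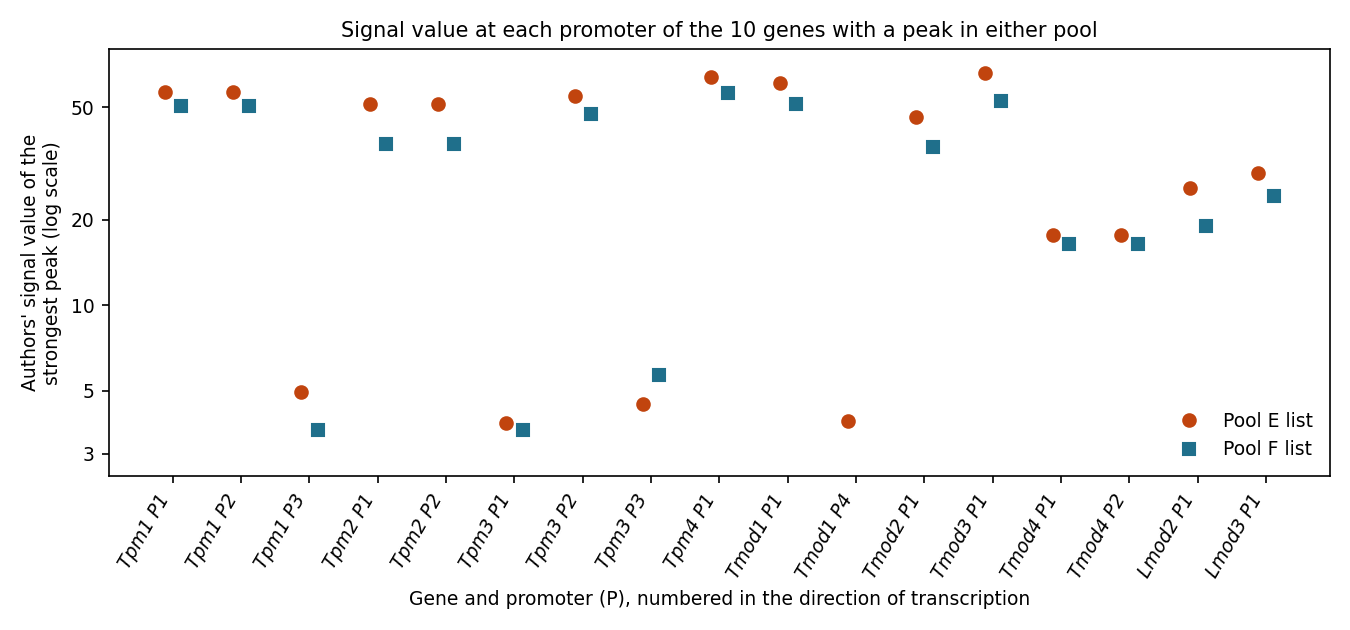
The authors' signal value of the strongest peak (log axis) in pool E (circles) and pool F (squares) among those within 1000 bp of each promoter of the 10 genes that has a peak in either pool. The internal promoter Tpm3 P2 sits at 54.8 in pool E and 47.4 in pool F and the upstream Tpm3 P1 at 3.86 and 3.63, and Tmod1 P4 has a point for pool E only.

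All tropomodulin genes were marked at their first promoter, with the highest signal values at Tmod3 and Tmod1 and the lowest at Tmod4. Tmod1, the capping protein of the sarcomere that is also found in red blood cells, had at P1 a peak of 4242 bp with a signal value of 60.9 in pool E, of 3990 bp with 51.4 in pool F, and of 4027 bp with 55.8 in the replicated list, on chromosome 4 from 46038473 to 46042499. Tmod3, which is expressed in most cells, had a peak of 3455 bp with 65.8 in pool E, of 3456 bp with 52.6 in pool F, and of 3455 bp with 56.6 in the replicated list, on chromosome 9 from 75556521 to 75559975. Tmod2, known mainly from neurons, had the narrowest leading peak of the 10 genes, 1917 bp with 46.1 in pool E, 1877 bp with 36.2 in pool F, and 1894 bp with 37.1 in the replicated list. Tmod2 stood at percentile 33.4 of signal value and 34.4 of width among marked genes, below the middle of both.

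Tmod4, the tropomodulin of skeletal muscle, combined a wide peak with the lowest signal value of the 10 genes. The peak was 6306 bp wide with 17.7 in pool E, 6317 bp wide with 16.5 in pool F, and 6313 bp wide with 15.0 in the replicated list, on chromosome 3 from 95124408 to 95130720. It covered 100% of the gene, P1 with coding transcripts of 345 codons as well as the non-coding P2, and stood at percentile 96.4 of width and 10.99 of signal value among marked genes. The peak also covered 3 TSSs of Scnm1, a splicing factor gene on the other strand, of which the nearest lies 5812 bp downstream of the first TSS of Tmod4, so its width is not that of Tmod4 alone. Its summit lay 199 bp downstream of the first TSS of Tmod4.

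Unmarked promoters were mostly those of the tropomodulin genes, 8 of the 9 in the replicated list. These genes hold 13 of the 25 promoters, and 5 of the 13 were marked, which is near the 41.2% of all promoters of protein-coding genes. Tmod2 P2 and P3 each start a complete coding transcript of 351 codons, and the nearest replicated peaks lay 2428 bp and 3945 bp away. Tmod3 P2 also starts a protein-coding transcript, with the nearest replicated peak 5699 bp away. Tmod1 P4, a non-coding start, was the only promoter on which the pools differed: it had a peak of 424 bp with a signal value of 3.92 at 613 bp in pool E, and none within 1000 bp in pool F, where the nearest lay 12358 bp away.

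The leiomodin genes had wide peaks with signal values below the median of marked genes. Lmod2, the leiomodin of heart and skeletal muscle, had a peak of 5450 bp with 25.9 in pool E, of 5295 bp with 18.99 in pool F, and of 5456 bp with 21.3 in the replicated list, on chromosome 6 from 24597589 to 24603044. A second, weak peak lay just upstream of it in both pools, with signal values of 5.84 in pool E, 4.68 in pool F and 4.94 in the replicated list, and the gap between them was 150 bp in pool E, 142 bp in pool F and 134 bp in the replicated list. Lmod3, whose loss causes nemaline myopathy in people, had a peak of 4800 bp with 29.3 in pool E, of 4422 bp with 24.3 in pool F, and of 4767 bp with 26.6 in the replicated list, on chromosome 6 from 97249469 to 97254235. Among marked genes Lmod2 stood at percentile 94.2 of width and 15.1 of signal value, and Lmod3 at 91.2 and 19.4.

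Across the 10 genes, peaks were wide while signal values were near those of other genes. The widest peak of each had a median width of 4954 bp, against 2280 bp for the other 15057 marked protein-coding genes (interquartile range 1654 to 3195 bp). The median of the highest signal value was 48.0 for the 10 genes and 45.2 for the others (interquartile range 31.7 to 54.7). Peaks covered a median of 34.6% of the gene body of the 10 genes and 7.88% of that of the others (interquartile range 3.42 to 19.6%). Gene length differs between these genes and enters that share: Tmod4 was covered over 100% and Lmod2 over 88.2%, while the long genes Tmod1 and Tmod2 were covered over 9.30% and 4.38%. The peak over Tmod4 also covers TSSs of Scnm1.

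**Figure D3:**
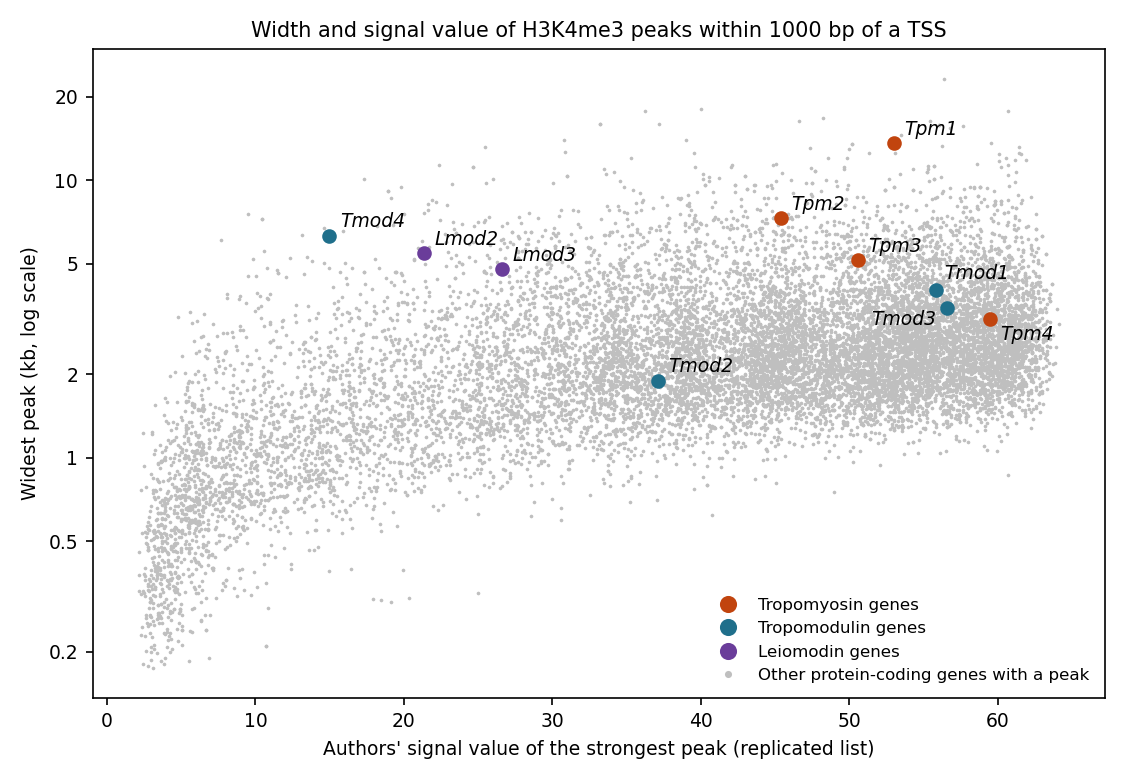
Width in kb of the widest peak (log axis) against the authors' highest signal value for each of the 10 genes (coloured, named points) and for the other marked protein-coding genes, in the replicated list. Of the 10 genes Tpm1 has the widest peak, 13622 bp, and Tmod4, Lmod2 and Lmod3 combine widths of 4767 bp or more with signal values of 26.6 or less. The peak of Tmod4 also covers TSSs of Scnm1.

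The domains reached mainly downstream of the start. Over the first TSS of 9 of the 10 genes (that of Tpm3 was not covered), the peak reached a median of 3564 bp downstream and 326 bp upstream, against 1436 bp downstream (interquartile range 1025 to 2128 bp) and 705 bp upstream (460 to 1066 bp) for 13386 other genes. The peak reached further downstream than upstream in 9 of 9, against 83.6% of the other genes. Summits lay 199 to 567 bp downstream of the first TSS, with a median of 426 bp, against a median of 205 bp for the others. Tpm1 reached furthest downstream, 10671 bp, followed by Tmod4 with 6244 bp and Lmod2 with 5282 bp. The peaks of Tpm1, Tpm2 and Tmod4 also cover P2 of their gene, and that of Tmod4 covers TSSs of Scnm1. Their reach is therefore not that of the first promoter alone. Upstream reach was 2950 bp for Tpm1, 2368 bp for Tpm2 and 1476 bp for Lmod3, and at most 462 bp for the other 6.

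**Figure D4:**
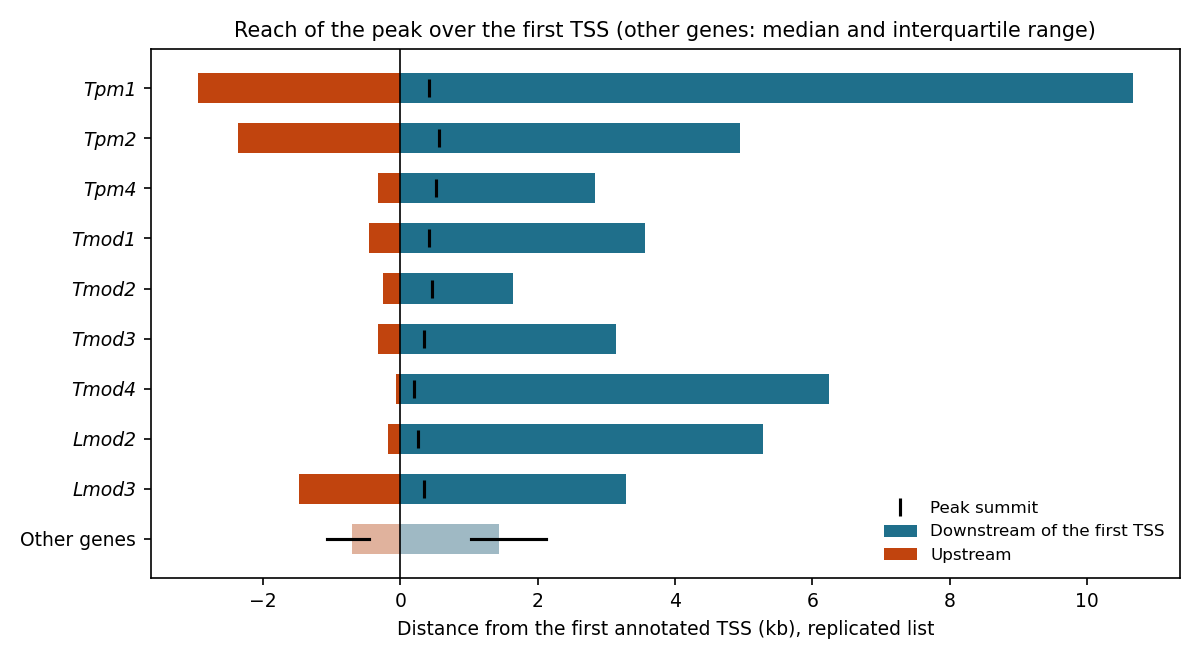
Distance in kb that the peak over the first TSS reaches upstream and downstream in the direction of transcription, in the replicated list, with its summit as a tick, for the 9 genes whose first TSS it covers; pale bars are the medians of other protein-coding genes and lines on them the interquartile ranges. All 9 reach further downstream than upstream, with Tpm1 at 10671 bp downstream.

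Between the pools, the marked promoters differed at Tmod1 P4 alone, and signal values were mostly higher in pool E. Signal value of the strongest promoter was higher in pool E for 10 of 10 genes, with a median ratio of pool E to pool F of 1.196 (range 1.076 to 1.38), and for 90.6% of other genes, with a median ratio of 1.16. Width was larger in pool E for 8 of 10 genes, with a median ratio of 1.05, and for 76.6% of other genes, also with 1.05. Pool E thus had the higher values at most genes of the lists, these 10 included, and the depth of the pools is unknown. Every replicated peak at these promoters stood unchanged in the pooled list, so those lists are not separate evidence.

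Other genes of the thin filament served as a comparison, from a list of 20 that held actins, troponins, capping proteins, nebulin and related genes. It also held a further leiomodin gene, Lmod1, named after its values were seen. In the replicated list Lmod1 had a peak of 5150 bp with a signal value of 20.7. All 20 were marked, against 69.3% of all protein-coding genes, and the median of their signal values was 41.1 and that of their widest peaks 5043 bp (range 460 to 13130 bp). The highest signal values were those of Cfl2, the cofilin of muscle, with 61.7, the barbed-end capping gene Capzb with 59.9 and the fast-fibre actinin gene Actn3 with 57.7. The lowest were those of the cardiac actin gene Actc1 with 9.07 and of the slow-fibre troponin genes Tnni1 and Tnnt1 with 3.84 and 3.46, beside 3.36 at the slow-fibre promoter Tpm3 P1. The other troponin genes of the list, named after their values were seen, did not follow fibre type throughout: the fast-fibre genes Tnnt3, Tnni2 and Tnnc2 had signal values of 47.4, 42.7 and 29.8, and Tnnc1, of slow fibres and heart, had 46.8. In that list 5 of the 11 genes with 2 or more promoters had 2 or more marked, against 29.1% of all such genes.

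Peaks were also found at marker genes of other cells, and the part of such cells in the marks above was not tested. Since 69.3% of all protein-coding genes were marked, the counts of marked markers say little by themselves. Marker genes of skeletal muscle fibres were marked in 5 of 5 cases, with signal values of 23.2 to 58.8. Those of smooth muscle were marked in 5 of 5, with 4.22 to 20.7, those of endothelium in 4 of 4, with 25.5 to 37.96, and those of fibroblasts in 4 of 4, with 7.72 to 35.3. The fibre markers Acta1 and Tnnt3 and the smooth muscle marker Lmod1 are also in the list of thin filament genes. Lmod1 gave the highest smooth muscle value. Neuron markers were marked in 3 of 4, all but Snap25, with 7.45 to 25.1, and leukocyte markers in 2 of 4, all but Cd3e and Cd79a, with 3.05 to 8.02. Beside them, Tmod2, known from neurons, had 37.1, and Tpm2, which smooth muscle also uses, had 45.4. Wide peaks were not particular to fibre genes. The widest replicated peaks measured 6475 to 11065 bp at fibre markers, 4477 to 10104 bp at endothelial markers and 5068 to 12060 bp at fibroblast markers. They measured 1129 to 5150 bp at smooth muscle markers, 1031 to 1466 bp at neuron markers and 1216 to 2414 bp at leukocyte markers.

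CpG content separated marked from unmarked promoters of these genes only in part. The observed over expected CpG ratio of the 1000 bp around the first TSS had a median of 0.506 at the 16 marked promoters (range 0.132 to 0.807) and 0.240 at the 9 unmarked ones (range 0.116 to 0.434). Over all promoters of protein-coding genes it was 0.646 at 19899 marked and 0.211 at 28439 unmarked promoters. Tmod1 P1, Tpm1 P2, Tmod3 P1 and Tpm3 P2 had the highest ratios, 0.807, 0.791, 0.731 and 0.697. Tpm3 P1 had a ratio of 0.132, lower than those of 8 of the 9 unmarked promoters. The skeletal muscle genes Tmod4 P1, Lmod3 and Lmod2 were marked over several kilobases, at Tmod4 with TSSs of Scnm1 under the same peak. Their ratios were 0.205, 0.2996 and 0.353, which lie in the range of the unmarked promoters. The marked internal promoters Tpm1 P3, Tpm2 P2, Tpm3 P3 and Tmod4 P2 also lie in that range, with 0.433, 0.343, 0.246 and 0.194.

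**Figure D5:**
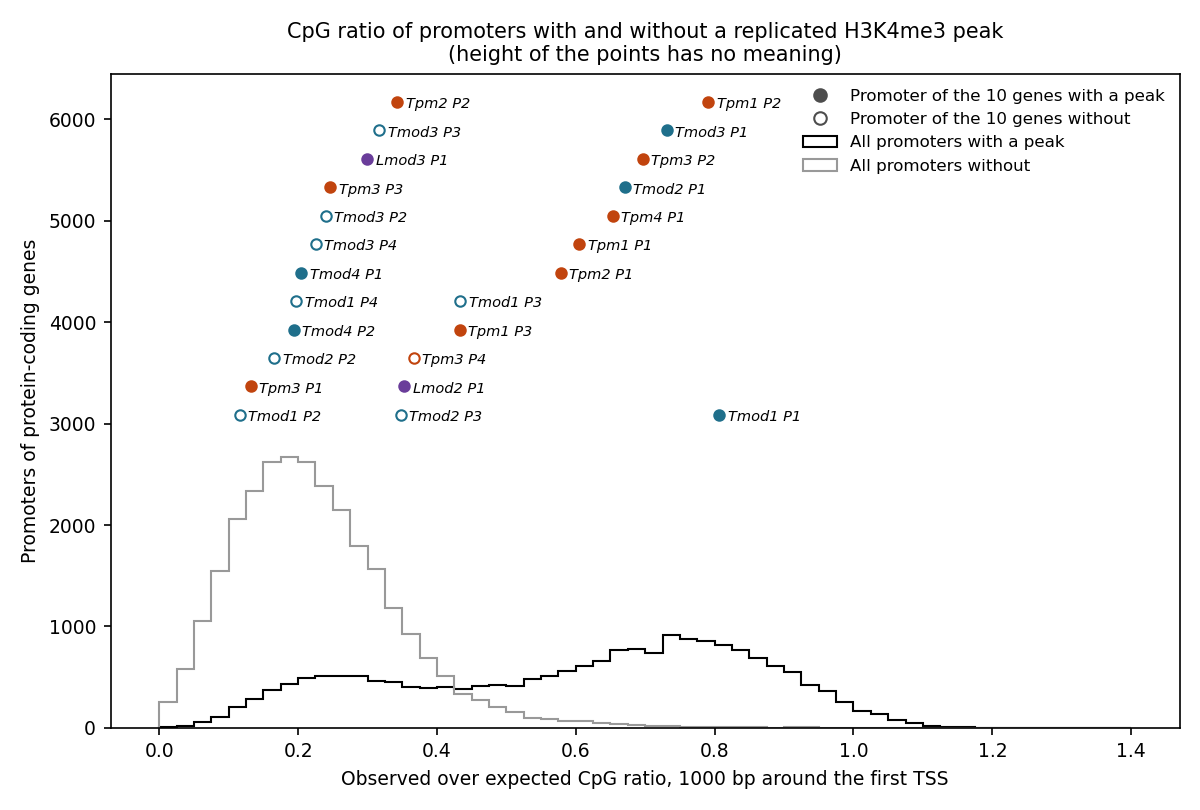
Observed over expected CpG ratio of 1000 bp around the first TSS of each promoter of the 10 genes, filled where a replicated peak marks it and open where none does, above histograms of all promoters of protein-coding genes with and without a peak; the height of the points has no meaning. Filled points of Tpm3 P1, Tmod4 and the leiomodin genes lie at ratios of 0.132 to 0.353, among the open ones. Those of Tpm1 P3, Tpm2 P2 and Tpm3 P3 also lie there, at 0.433, 0.343 and 0.246.

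Sequence motifs known from muscle promoters were searched on both strands in the RefSeq windows of 8 of the 10 genes, 10 windows in all; Tmod3 and Lmod3 were not matched. They were the E-box (CANNTG, bound by MyoD and other bHLH factors), the MCAT motif (CATTCC, bound by TEAD factors), the TATA sequence TATAAA, the MEF2 motif and the CArG box of SRF. Capitals mark E-box and MCAT matches in the windows of Lmod2, the muscle leiomodin, and Tpm1, which has the widest domain.
Lmod2, chr6:24597521-24597820, plus strand: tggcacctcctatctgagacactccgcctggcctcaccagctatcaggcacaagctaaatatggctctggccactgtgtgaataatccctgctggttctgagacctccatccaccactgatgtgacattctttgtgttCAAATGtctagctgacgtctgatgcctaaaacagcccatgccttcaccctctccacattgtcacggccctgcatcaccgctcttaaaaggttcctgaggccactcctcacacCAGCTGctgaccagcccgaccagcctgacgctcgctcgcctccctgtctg
Tpm1, chr9:67049164-67049463, minus strand: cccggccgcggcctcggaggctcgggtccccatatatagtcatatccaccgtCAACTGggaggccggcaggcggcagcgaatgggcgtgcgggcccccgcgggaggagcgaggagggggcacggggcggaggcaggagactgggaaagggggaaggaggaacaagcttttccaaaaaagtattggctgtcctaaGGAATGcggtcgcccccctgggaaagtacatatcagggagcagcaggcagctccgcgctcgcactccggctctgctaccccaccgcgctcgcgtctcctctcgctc
An E-box was found in 9 of the 10 windows, all but that of Tmod1, and in 72.3% of all RefSeq windows. MCAT was found in 2, those of Tpm1 and Tmod1, and in 14.7% of all windows. TATAAA, MEF2 and the CArG box were found in none of the 10, against 13.6%, 3.19% and 1.63% of all windows, and no matches of different motifs shared a base. These matches describe the letters of the windows only.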

How the data were processed

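The deposited files were peak lists in narrowPeak format on mm10. Text files deposited with the samples trace the lists to filtered alignments of either pool or both, and to a further input listed without a description. Technical libraries of a pool share 1 alignment. For the aligner and the peak caller, names and settings are not given in the sources used here. Each peak's signal value is as the authors deposited it. The deposited −log10 p-value and −log10 q-value columns did not filter peaks in the main values, and 478 replicated peaks had a q-value above 0.05. Since no read counts are held, depth is unknown and no counting interval can be given.

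Genes and TSSs came from GENCODE M21. Promoters counted as marked if any of their TSSs had a peak within 1000 bp (0 bp where they overlapped by at least 1 bp), and peak width was end minus start. No test was made, and values were set beside those of all protein-coding genes. All 10 genes are named, with the 3 strongest and the 3 weakest of the comparison list. Its other troponin genes and Lmod1 were named after their values were seen. The genes, gene lists and alternatives were chosen with earlier results of these data known. Overlap was checked on simulated peaks. Python 3.11.15, pandas 2.3.3, numpy 2.4.6 and matplotlib 3.10.9 were used. Alternatives were other windows, joining distances, TSS sets, lists and minimum signal or q-values. The result of 1 marker list is not reported here.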

Additional observations from a re-analysis of the deposited data

How the results depend on the processing

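All 10 genes stayed marked under every alternative tried. The number of marked promoters, 16 of 25 as reported, was 12 of 15 with TSSs of protein-coding transcripts, 12 of 14 with TSSs of basic transcripts, 19 of 31 with TSSs joined within 300 bp and 15 of 22 with TSSs joined within 2500 bp. Of the 25 it was 13 with a TSS window of 0 bp, 18 with 2500 bp, 16 with a q-value of at most 0.05, 13 with peaks above the list's median signal value, 17 in the pooled list, 17 without pool F and 16 without pool E. The number of genes with 2 or more marked promoters, 4 as reported, was 2 with TSSs of protein-coding transcripts and 2 with TSSs of basic transcripts, where fewer promoters are counted, and 3 to 6 under the other alternatives. Joining peaks within 1000 bp of each other widened the domain of Tpm1 to 19268 bp and that of Lmod2 to 7870 bp. It also widened those of Tpm3, Tmod4, Tmod1 and Tmod3, to 7246, 7128, 5682 and 4742 bp. The widths of Tpm2, Tpm4, Tmod2 and Lmod3 did not change. No paired analysis was possible because no test was made. Depth is unknown, and weak peaks such as those at Tpm3 P1 and Tpm1 P3 cannot be given a counting error.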

Other observations

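Weak peaks more than 1000 bp from every TSS of the gene itself lay inside 7 of the 10 genes in the replicated list. The share of other genes that hold such peaks was not computed, so this count has no background. Whether these peaks lie near TSSs of other genes was not checked. Tmod1 held 5, Tmod3 4, Tpm1 3, Tpm3 2, Lmod3 2, and Tmod2 and Lmod2 1 each. The highest signal value among them was 7.31, in Tpm1, and the widest, 2158 bp, lay in Lmod3. Tpm2, Tpm4 and Tmod4 held none.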
